A study of Mus musculus with 15 samples.

Results

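The VEGF and angiopoietin system of the ovary was followed through 10 genes, found by their symbols among the 27907 genes of the table. They were the ligands Vegfa, Vegfb, Vegfc, Pgf, Angpt1 and Angpt2 and the receptors Kdr, Flt1, Flt4 and Tek. Of these, the lymphatic growth factor gene Vegfc was the member with the clearest difference between the genotypes, with a mean ratio of 1.37 (log2 fold change 0.46 ± 0.11, SE, 7 HSD17B1-KI and 8 WT mice), which passed the test over all genes with DESeq2 but not with limma-trend or edgeR. The receptor genes Kdr, Flt1 and Flt4 differed between the means of the genotypes by less than the SD between mice. Angpt2 varied up to 4.15-fold between WT mice and moved with the theca, interstitial and granulosa cell markers of the same ovary, and Kdr, Flt1 and Tek moved with each other.

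The samples were whole ovaries of 6-month-old females collected in estrus, with 1 library per mouse. HSD17B1-KI females (n = 7) were homozygous for the HSD17B1 Ser143Ala mutation, made with CRISPR/Cas9, which replaces a serine of the active site of the estradiol-forming enzyme 17β-hydroxysteroid dehydrogenase 1. WT females (n = 8) came from the same kind of breeding between heterozygous parents and served as controls. All mice carry the mutation or the normal allele in every cell, and no other allele or treatment is named. Since each library holds RNA of all cells of the ovary, fewer cells of a type and less RNA per cell cannot be told apart.

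Vessels of the ovary grow and regress with each follicle and corpus luteum. VEGFA, which hypoxia and gonadotropins induce in granulosa and luteal cells, acts on endothelium through VEGFR2, the product of Kdr, while VEGFR1, the product of Flt1, binds it more tightly and serves largely as a trap that also binds VEGFB and PGF. VEGFC acts mainly through VEGFR3, the product of Flt4, on lymphatic endothelium. Angiopoietin 1 activates the endothelial receptor TIE2, the product of Tek, and steadies vessels, and angiopoietin 2 opposes it in many settings and loosens vessels before they sprout or regress.

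Between 26544745 and 72362981 reads per mouse were recovered on genes, with medians of 43611091 in HSD17B1-KI and 45313571.5 in WT. Normalized counts are reads per gene divided by 1 size factor per library. The comparison of the genotypes was limma-trend on log2(normalized count + 1) for the 21525 genes averaging 2 or more normalized counts, two-sided, with Benjamini-Hochberg adjusted p-values over these genes. DE genes had an adjusted p under 0.05, and all 10 members passed the filter. The mutated gene itself, Hsd17b1, averaged 11650 normalized counts in mutant and 8829 in WT ovaries (limma-trend, adjusted p = 0.666), which does not check the labels, since read counts per gene cannot show a point mutation.

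Sequences upstream of the genes are shown for Vegfc, on which the comparison of the genotypes turned, and for the 3 receptor genes Kdr, Flt1 and Tek, whose levels moved together between mice. Each is the 250 bases before the RefSeq transcription start in GRCm38.p6, read 5′ to 3′ on the strand of the gene. Capitals mark the GC box GGGCGG or its reverse complement CCGCCC, a binding sequence of SP family factors. The windows are chr8:54077282-54077531 on the plus strand for Vegfc, chr5:75978456-75978705 on the minus strand for Kdr, chr5:147726012-147726261 on the minus strand for Flt1, and chr4:94739039-94739288 on the plus strand for Tek.
Vegfc: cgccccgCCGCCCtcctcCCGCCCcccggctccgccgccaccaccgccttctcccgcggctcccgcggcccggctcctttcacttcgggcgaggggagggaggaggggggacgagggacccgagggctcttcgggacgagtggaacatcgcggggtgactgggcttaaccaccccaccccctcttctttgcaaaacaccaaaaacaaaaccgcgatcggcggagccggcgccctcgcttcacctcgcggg
Kdr: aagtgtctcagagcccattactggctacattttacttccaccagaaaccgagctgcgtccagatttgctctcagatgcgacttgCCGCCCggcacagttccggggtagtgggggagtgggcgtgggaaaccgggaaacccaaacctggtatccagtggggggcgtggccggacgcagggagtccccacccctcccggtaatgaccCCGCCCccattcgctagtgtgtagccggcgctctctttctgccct
Flt1: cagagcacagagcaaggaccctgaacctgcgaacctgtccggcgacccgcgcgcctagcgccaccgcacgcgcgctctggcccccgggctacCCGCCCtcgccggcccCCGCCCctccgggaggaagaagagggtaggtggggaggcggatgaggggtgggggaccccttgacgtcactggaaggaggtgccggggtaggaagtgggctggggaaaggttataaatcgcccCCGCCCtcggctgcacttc
Tek: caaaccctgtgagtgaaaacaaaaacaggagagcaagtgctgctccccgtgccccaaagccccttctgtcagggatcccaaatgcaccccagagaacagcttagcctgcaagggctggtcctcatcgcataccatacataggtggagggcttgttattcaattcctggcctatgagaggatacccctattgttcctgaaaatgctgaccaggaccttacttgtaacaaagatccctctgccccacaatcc

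Promoters were given for 8 of the 10 members. The Vegfc window held 2 GC boxes in 71.6% GC, the Kdr window 2 in 61.6% GC and the Flt1 window 3 in 70.4% GC. The Tek window held none in 51.2% GC. A GC box was present in 32.7% of the 32851 mouse promoter windows of this length. Of 4 other motifs searched on both strands, the ETS site CCGGAA was found once among these 4 windows, in Kdr, and is present in 3952 of all windows. The TATA box TATAAA occurred once, in Flt1, and in 12.4% of all windows (4063). Neither the hypoxia response core ACGTG (16.6% of all windows) nor the nuclear receptor half-site AGGTCA (in 4607 windows) occurred in these 4 windows. Matches of different motifs were counted separately also where they overlapped, and a match is a run of letters, not a measured binding site.

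The ligand genes Vegfa and Vegfb stood at the top of the system. On a per-length scale (normalized counts per kb of exon, mean of the 15 mice), Vegfa was at 1820 and Vegfb at 1223, above 94.6% and 90.6% of the tested genes. Vegfa exceeded Vegfb in 15 of 15 mice, by a median ratio of 1.41, and Vegfb exceeded Angpt2 in 15 of 15, by a median ratio of 3.05. A middle group followed on the same scale, in which Angpt2 had 443, the receptors Kdr and Tek 406 and 361, Vegfc 252 and Flt4 242 normalized counts per kb. Angpt2 and Kdr could not be ordered, since Angpt2 was the higher in 8 of 15 mice (5 of 7 HSD17B1-KI and 3 of 8 WT), and Kdr exceeded Tek in 12 of 15 (4 of 7 HSD17B1-KI and 8 of 8 WT). The order of the ligand Vegfc and its receptor gene Flt4 differed by genotype. Vegfc was the higher per kb in 7 of 7 HSD17B1-KI mice (means 295 and 244) and in 1 of 8 WT mice (means 216 and 240). The median ratio over the 15 mice was 1.00. Where equality falls depends on the exon lengths used, 2449 bp for Vegfc and 8232 bp for Flt4. This order restates the difference in Vegfc given below and is no separate result. Angpt1 (141 per kb) and Flt1 (134 per kb) were not separable, with Angpt1 the higher in 8 of 15 mice. Pgf, a ligand of VEGFR1 best known from the placenta, was the lowest member at 28.02 per kb, below Flt1 in 15 of 15 mice.

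Vegfc encodes the growth factor that drives lymphatic sprouting (ENSMUSG00000031520, chr8:54077606-54187096, plus strand, GRCm38). In WT ovaries the lowest value was 397, the median 509 and the highest 687 normalized counts. Among HSD17B1-KI ovaries the values ran from 656 through a median of 686 to 875. All 7 HSD17B1-KI mice lay above the WT mean, which 3.74% of tested genes showed, and 7 of 8 WT mice lay below the lowest HSD17B1-KI mouse. Only WT 7, the highest WT mouse, reached into the HSD17B1-KI range. The ratio of the means was 1.37, and the log2 fold change was 0.46 ± 0.11 (SE), with a 95% interval of 0.23 to 0.69. An exact permutation test over the 6435 splits of the mice gave a two-sided p of 0.00171, for a gene whose difference was known when the system was chosen. In the test over all genes the unadjusted p was 0.000631 and the adjusted p 0.0971 (limma-trend), so that Vegfc was not DE there. With DESeq2 on recovered reads the log2 fold change was 0.45 ± 0.11 (SE) and the adjusted p 0.00856, and with edgeR the adjusted p was 0.108. On simulated data DESeq2 made the most false calls, 59 against 6 for limma-trend and 4 for edgeR. Those counts were drawn with the spread that edgeR estimated, and the changed genes were changed 3-fold. The simulation therefore cannot decide whether the DESeq2 call of Vegfc is false.

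In all, 0 of the 10 members were DE with limma-trend, where 0.214% of tested genes were (46 of 21525), and 1 member, Vegfc, was higher at an unadjusted p under 0.05, where 5.36% of genes were. With edgeR 0 members were DE (0.232% of genes), again with 1 higher at an unadjusted p under 0.05 (5.46% of genes), and with DESeq2 1 member was DE (2.3% of genes). The median log2 fold change over the 10 members was -0.02, and that of all tested genes was also -0.02.

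**Figure D1:**
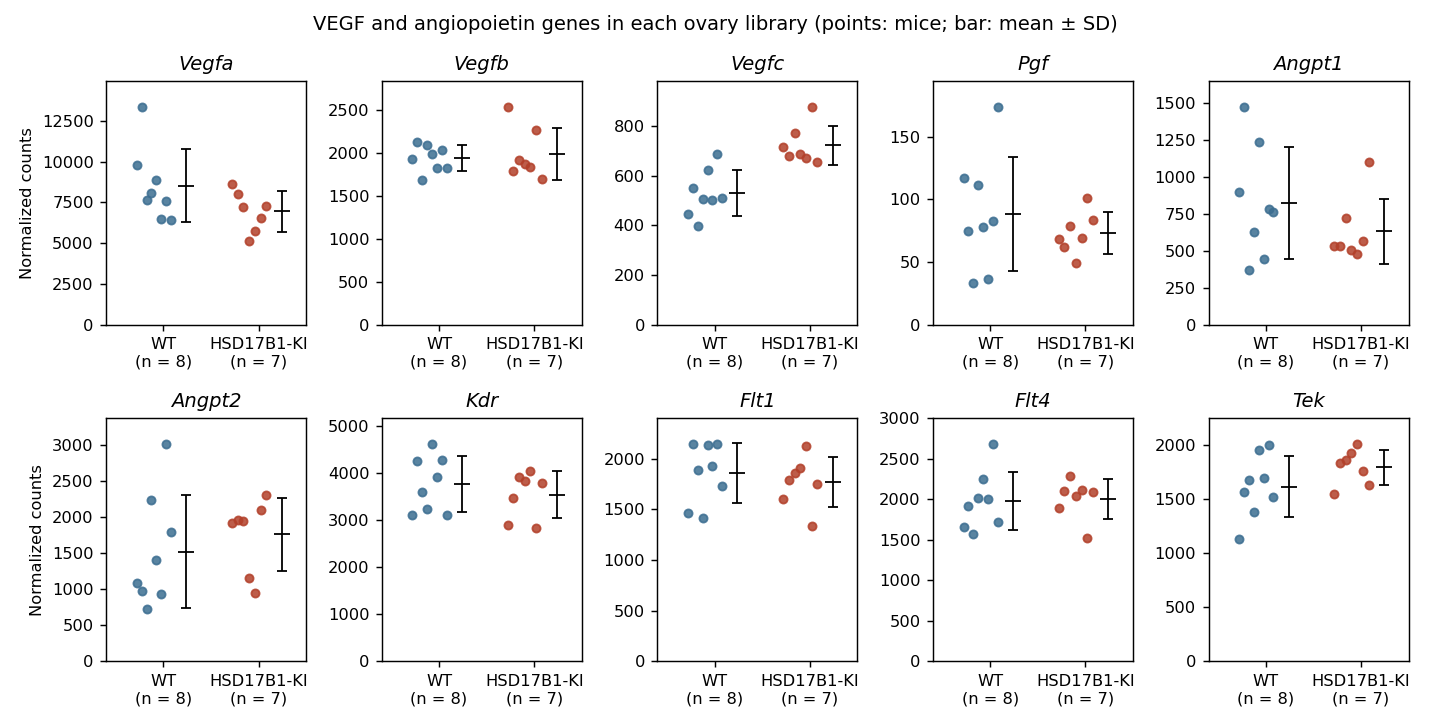
Normalized counts (vertical axis, from 0) of the 10 genes in each mouse, WT in blue (n = 8) and HSD17B1-KI in red (n = 7), with the mean and SD beside the points. For Vegfc the red points lie between 656 and 875 and 7 of 8 blue points lie below them, while the groups overlap broadly in the other panels.

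Vegfa encodes the main vascular growth factor (ENSMUSG00000023951, chr17:46016993-46032369, minus strand). Normalized counts in WT had a minimum of 6409, a median of 7892 and a maximum of 13351, the last in WT 2. The HSD17B1-KI values ran from 5144, in HSD17B1-KI 4, through 7253 to 8649. The groups overlapped, with 6 of 7 HSD17B1-KI mice below the WT mean, and the difference missed the test (log2 fold change -0.28 ± 0.15 (SE), 95% interval -0.60 to 0.04, limma-trend adjusted p = 0.564 and, by exact permutation test, p = 0.105). Without WT 2 the log2 fold change was -0.18. Vegfb, whose product binds VEGFR1, had WT values from 1690 through a median of 1963 to 2124 normalized counts. As a fold of highest over lowest WT mouse (1.26) this was the narrowest range of the ligands. Its HSD17B1-KI values spanned 1697 to 2534, with a median of 1873. The groups overlapped, with 2 of 7 HSD17B1-KI mice beyond the highest WT value and the other 5 under the WT mean, and the log2 fold change was 0.03 (95% interval -0.15 to 0.21, limma-trend adjusted p = 0.944). Pgf was measured from few reads, with 33.0 to 174 normalized counts in WT (median 80.5) and 49.6 to 101 in HSD17B1-KI (median 69.5). Its HSD17B1-KI values fell within the WT range, and the log2 fold change was -0.11 (95% interval -0.77 to 0.55, limma-trend adjusted p = 0.936).

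Kdr encodes VEGFR2, the signalling receptor of VEGFA (ENSMUSG00000062960, chr5:75932827-75978458, minus strand). WT ovaries held 3116 to 4625 normalized counts, with a median of 3761, and HSD17B1-KI ovaries 2842 to 4050, with a median of 3802. These ranges overlapped, with 4 of 7 HSD17B1-KI mice above the WT mean, and the log2 fold change was -0.09 (95% interval -0.31 to 0.14, limma-trend adjusted p = 0.846). Flt1, whose transcripts encode both the membrane receptor VEGFR1 and a soluble form (ENSMUSG00000029648, chr5:147561604-147726011, minus strand), had 1413 to 2145 normalized counts in WT (median 1908) and 1337 to 2120 in HSD17B1-KI (median 1790). Its groups overlapped as well (log2 fold change -0.07, 95% interval -0.31 to 0.17, limma-trend adjusted p = 0.885), and counts per gene do not separate the 2 protein-coding transcripts that GENCODE M21 lists for it. Flt4, the lymphatic receptor gene (ENSMUSG00000020357, chr11:49609263-49652739, plus strand), had 1570 to 2682 normalized counts in WT (median 1961) and 1517 to 2284 in HSD17B1-KI (median 2086). The lowest of all 15 mice was HSD17B1-KI 6, which had the highest Vegfc, and the log2 fold change of Flt4 was 0.03 (95% interval -0.21 to 0.27, limma-trend adjusted p = 0.952). For the 3 VEGF receptor genes the intervals reached no further than -0.31 and 0.27 on the log2 scale.

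Angpt1 encodes the ligand that activates TIE2 (ENSMUSG00000022309, chr15:42424723-42676977, minus strand). WT mice spread from 369 through a median of 770 to 1471 normalized counts. HSD17B1-KI mice ranged from 476 through 533 to 1099, with 6 of 7 below the WT mean. The range of HSD17B1-KI lay inside that of WT (log2 fold change -0.30 ± 0.27 (SE), 95% interval -0.88 to 0.28, limma-trend adjusted p = 0.763 and, by exact permutation test, p = 0.324). This log2 fold change was -0.16 without WT 2, -0.20 without WT 5 and -0.44 without HSD17B1-KI 7, the mouse at 1099. Exons of Angpt1 overlap those of an antisense gene, Gm17473, and how the counting used strand is not given in the sources used here, so its counts are uncertain to that extent.

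Angpt2, the gene of the ligand that destabilizes vessels (ENSMUSG00000031465, chr8:18690263-18741562, minus strand), ranged in WT from 726 through a median of 1248 to 3016 normalized counts. In HSD17B1-KI it ranged from 947 through 1947 to 2302. The median of HSD17B1-KI was higher but both its ends lay inside the WT range (log2 fold change 0.30 ± 0.29 (SE), 95% interval -0.31 to 0.91, limma-trend adjusted p = 0.783 and, by exact permutation test, p = 0.351). It was 0.17 without WT 3, the lowest WT mouse, and 0.46 without WT 7, the highest. Tek, the gene of the receptor TIE2 (ENSMUSG00000006386, chr4:94739289-94874976, plus strand), had 1135 to 2003 normalized counts in WT, with a median of 1623. HSD17B1-KI ovaries held 1549 to 2013, with a median of 1836, and 6 of 7 lay above the WT mean. The difference missed the test, with a log2 fold change of 0.17 ± 0.11 (SE) and a 95% interval of -0.06 to 0.39 (limma-trend adjusted p = 0.656 and, by exact permutation test, p = 0.159), and without WT 1, the lowest mouse, the log2 fold change was 0.096.

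**Figure D2:**
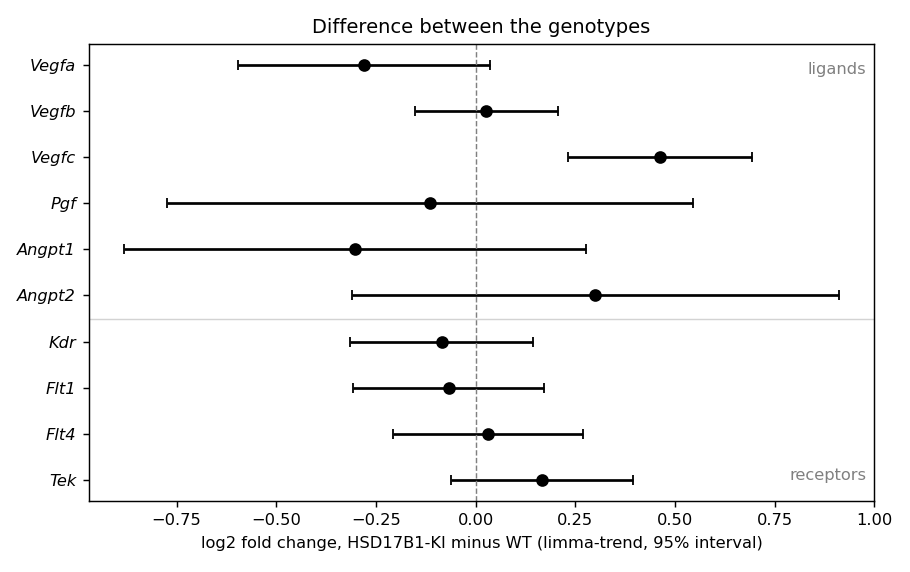
Log2 fold change of HSD17B1-KI against WT (horizontal axis) with its 95% interval from limma-trend for the 6 ligand and 4 receptor genes. The interval of Vegfc, 0.23 to 0.69, lies above 0, and the other 9 intervals include 0, those of Angpt1, Angpt2 and Pgf being the widest.

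Ratios of 2 genes within a mouse do not depend on the size factors. The ligand to receptor ratio Vegfc over Flt4 had a mean log2 value of -1.47 in HSD17B1-KI and -1.90 in WT. WT mice lay between -1.99 and -1.75 and HSD17B1-KI mice between -1.67 and -0.79. All 7 HSD17B1-KI mice were thus above every WT mouse, which held for the ratio over Flt4 of 0.0465% of 21524 genes. The difference was 0.43 on the log2 scale (exact permutation test, p = 0.000155, the smallest that 6435 splits allow, and 0.00124 after Benjamini-Hochberg adjustment over 8 relative measures). This ratio was chosen with the difference in Vegfc known and is no independent support for it. HSD17B1-KI 6 stood apart at -0.79, and without it the difference was 0.32. WT 7, whose Vegfc reached into the HSD17B1-KI range, had the highest Flt4 of all mice, 2682 normalized counts. The separation of the groups thus rested also on Flt4 in single mice. Deviations of Vegfc and Flt4 had r = 0.928 in WT and -0.697 in HSD17B1-KI. Over both genotypes r was 0.475, and -0.047 without WT 7 and WT 3.

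For Angpt2 over Angpt1, the balance of the opposing TIE2 ligands, the log2 ratio ran from -0.58 to 1.95 in WT (median 1.02) and from 0.99 to 1.89 in HSD17B1-KI (median 1.43). HSD17B1-KI mice all lay above the WT mean of 0.87, yet within the WT range, and the difference of 0.60 missed the test (exact permutation test, p = 0.111, adjusted 0.223). Vegfa over Vegfb had a mean log2 ratio of 1.80 in HSD17B1-KI and 2.10 in WT, with overlapping groups (exact permutation test, p = 0.0553, adjusted 0.221). Kdr over Flt1, the signalling receptor against the trap, was nearly constant. Its log2 ratio kept within 0.85 to 1.20 in all mice, with means of 1.01 in HSD17B1-KI and 1.02 in WT (exact permutation test, p = 0.747, adjusted 0.747).

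**Figure D3:**
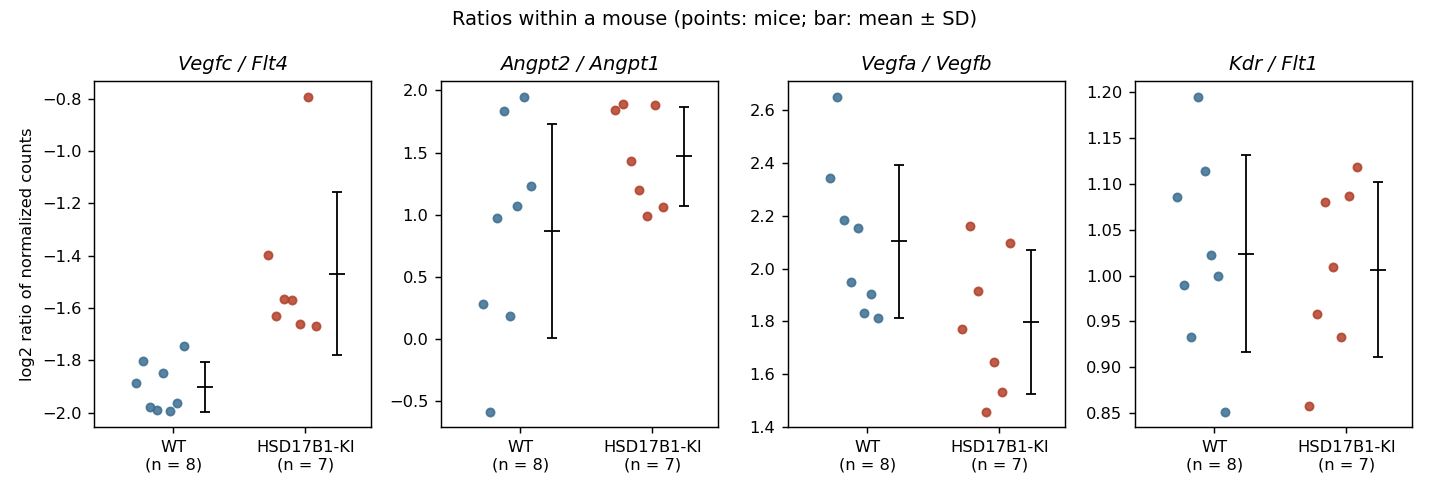
Log2 ratio of normalized counts of 2 genes in the same mouse (vertical axes, each with its own range) for WT in blue (n = 8) and HSD17B1-KI in red (n = 7), with mean and SD. Only for Vegfc over Flt4 do the groups separate, at -1.75 for the highest WT and -1.67 for the lowest HSD17B1-KI mouse.

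The receptors were also set against markers of the cells that carry them. Relative to 14 endothelial markers (among them Pecam1 and Cdh5), the mean log2 level of HSD17B1-KI minus WT was -0.09 for Kdr, -0.07 for Flt1 and 0.16 for Tek. Exact permutation tests gave p = 0.360, 0.441 and 0.0881, adjusted 0.577, 0.588 and 0.223. Flt4 relative to 6 lymphatic markers (among them Prox1 and Lyve1) differed by 0.05 (exact permutation test, p = 0.654, adjusted 0.747). The summed normalized counts of the endothelial markers ranged from 28638 to 38030 in HSD17B1-KI and from 27520 to 34806 in WT, and those of the lymphatic markers from 9400 to 11623 and from 7823 to 14611. Of these 20 markers 0 were DE with limma-trend, where 0.214% of tested genes were. At an unadjusted limma-trend p under 0.05 there were also 0, where 5.36% of tested genes were higher and 4.64% lower. With so few markers these counts do not show that the cells were unchanged. None of the 20 was at 0 in all mice.

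Mice of one genotype differed in the members to very different extents. In WT the SD of log2 values was 0.70 for Angpt2, larger than that of 96.4% of genes of like level, and 0.68 for Angpt1, larger than that of 90.5%. Vegfa varied with an SD of 0.34 (larger than 87.7%), while Vegfb, at 0.11, varied less than most genes of its level (larger than 20.8%). In HSD17B1-KI the SD of Vegfb was 0.21. Pgf, measured from few reads, had the largest WT SD of the members, 0.81 (larger than 76.0% of genes of like level). The highest WT mouse exceeded the lowest 5.26-fold for Pgf, 4.15-fold for Angpt2, 3.99-fold for Angpt1 and 2.08-fold for Vegfa. The receptors had WT SDs of 0.23 for Kdr, 0.24 for Flt1, 0.25 for Flt4 and 0.26 for Tek, larger than those of 71.6%, 70.1%, 73.2% and 73.9% of genes of like level. Vegfc had the same SD as Flt4, 0.25, larger than that of 50.8% of genes of its level.

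Which members varied together was examined on deviations of each mouse from the mean of its genotype, in 155 relations between members and between members and marker lists (permutation tests, 100000 resamples, two-sided, n = 15 mice). Libraries and size factors are shared by all the values. Kdr and Flt1 followed each other most closely, with Pearson's r of 0.896 (p = 1e-05, the smallest these resamples give, adjusted 0.000775) and Spearman's rho of 0.925 (p = 1e-05, adjusted 0.00155). This r was 0.897 in HSD17B1-KI and 0.896 in WT, and 0.885 without the 2 mice farthest from the median of Kdr. Flt1 and Tek had r = 0.761 (permutation p = 0.00133, adjusted 0.0412) and rho = 0.832 (p = 0.00051, adjusted 0.0252), with r = 0.890 without the 2 farthest mice. Kdr was related in the same way to Tek (r = 0.733, permutation p = 0.00222, adjusted 0.0488; rho = 0.779, p = 0.00176, adjusted 0.0418) and to Flt4 (r = 0.733, p = 0.00252, adjusted 0.0488; rho = 0.793, p = 0.00108, adjusted 0.0335). Without their 2 farthest mice these r values were 0.767 and 0.677. Flt1 also followed the mural cell markers (r = 0.742, permutation p = 0.00225, adjusted 0.0488; rho = 0.739, p = 0.00373, adjusted 0.0482), with r = 0.598 without the 2 farthest mice.

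Angpt2 was related to the markers of theca and interstitial cells and of granulosa cells. Against 6 theca and interstitial markers (Cyp17a1, Insl3, Hsd3b6, Ptch1, Gli1 and Hhip) its r was 0.873 (permutation p = 1e-05, adjusted 0.000775) and its rho 0.807 (p = 0.00065, adjusted 0.0252). The r was 0.937 in HSD17B1-KI, 0.938 in WT and 0.804 without the 2 farthest mice. HSD17B1-KI 4 and 5 had low theca and interstitial markers and the lowest Angpt2 of their genotype, 1157 and 947 normalized counts. Without them the r over both genotypes together was 0.874. The relation within HSD17B1-KI rested on these 2 mice. Among the others, HSD17B1-KI 1 had the highest marker deviation (0.80) and the lowest Angpt2 deviation (0.18). HSD17B1-KI 7 had a marker deviation of 0.41 and the highest Angpt2 deviation, 0.45. With the granulosa markers Angpt2 had r = 0.802 (permutation p = 0.00055, adjusted 0.0284) and rho = 0.836 (p = 0.00021, adjusted 0.0163), and r = 0.797 without the 2 farthest mice. With the mural markers it had r = -0.763 (permutation p = 0.00113, adjusted 0.0412) and rho = -0.768 (p = 0.00189, adjusted 0.0418), and r = -0.687 without the 2 farthest mice. With the luteal markers (Star, Cyp11a1 and Hsd3b1 among them) the sign was the opposite, r = -0.614 (permutation p = 0.0375, adjusted 0.191) and rho = -0.543 (p = 0.0643, adjusted 0.249), with r = -0.386 in HSD17B1-KI, -0.686 in WT and -0.703 without the 2 farthest mice, and this relation did not pass the adjustment. With it, 147 relations did not pass the adjustment for Pearson's r. Some of them passed for Spearman's rho only. They were Angpt2 with the endothelial markers (rho = -0.714, permutation p = 0.00336, adjusted 0.0482), Flt1 with the same markers (0.725), Vegfb with Vegfc (0.718), and Flt1 and Tek with the oocyte markers (-0.743 and -0.704). Angpt2 with the lymphatic markers had r = 0.756 (permutation p = 0.00312, adjusted 0.0503), with 0.937 in WT and -0.0920 in HSD17B1-KI.

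**Figure D4:**
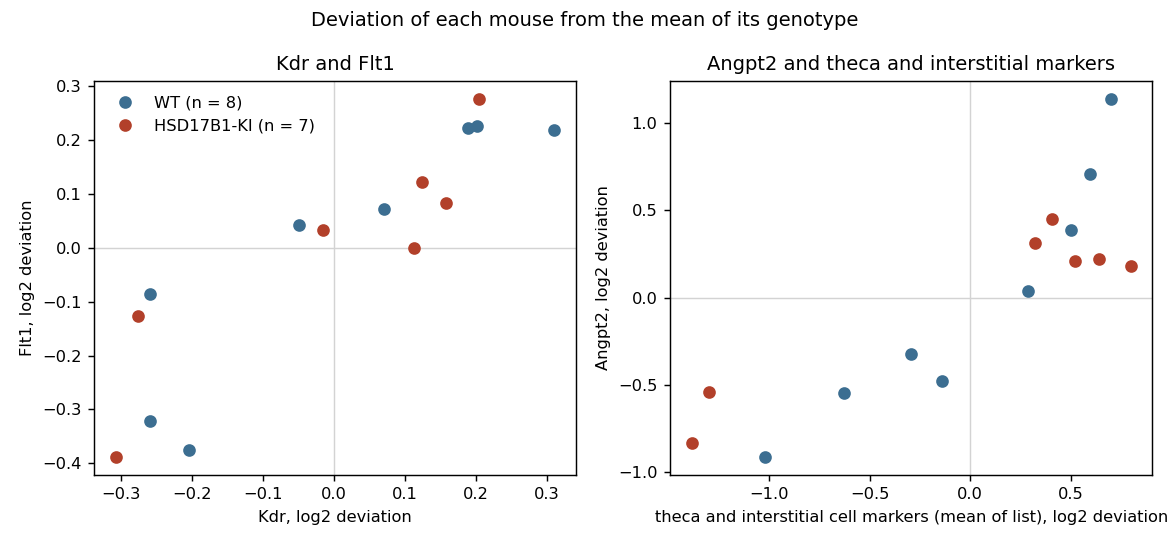
Log2 deviation of each mouse from the mean of its genotype, Flt1 against Kdr at left and Angpt2 against the mean of 6 theca and interstitial markers at right, WT in blue and HSD17B1-KI in red. The points rise together in both panels (r = 0.896 and r = 0.873), and the 2 red points at the lower left of the right panel are HSD17B1-KI 4 and 5. The other red points of that panel do not rise together.

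The genes most like each member were taken as those with the highest Pearson's r over the 15 mice on the same deviations, among 13865 genes averaging 100 or more normalized counts. They are a description, and they share libraries and size factors. Nearest to Angpt2 were Heph (0.966), Foxo1 (0.965) and Neu3 (0.965). Kdr stood nearest to Stk10 (0.933), Sh2b3 (0.926) and Pcdh12 (0.907), and Flt1 to Cd93 (0.871), Rasl12 (0.860) and again Pcdh12 (0.859), where Pcdh12 and Cd93 encode endothelial surface proteins. Vegfc was most like Gja5 (0.841), which encodes the gap junction protein connexin 40 of arterial endothelium, Ecm2 (0.835) and Pex19 (0.812). For Tek these genes were Cwf19l2 (0.882), Mmrn2 (0.881), an endothelial matrix protein gene, and Fbln7 (0.872), and for Flt4 they were Stard8 (0.824), Dennd4a (0.804) and Lrrc32 (0.804). The ligand Vegfa was nearest to Cables2 (0.928), Gm26660 (0.924) and Gramd1a (0.916), Vegfb to Gm22579 (0.895), Fkbp6 (0.882) and Amotl2 (0.835), and Angpt1 to 0610010F05Rik (0.920), Wdr41 (0.911) and Slco1a5 (0.899). Pgf was too low to be compared.

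Around the members, 59 other genes of the pathway in 6 lists were tested. With limma-trend 0 of them were DE, where 0.214% of tested genes were. At an unadjusted limma-trend p under 0.05, 1 was higher and 6 were lower in HSD17B1-KI, where 5.36% of all tested genes were higher and 4.64% lower. With DESeq2 1 was DE, where 2.3% of genes were, and with edgeR 0, where 0.232% were. The median log2 fold change of the 59 was -0.09.

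Of 6 genes that process or guide VEGFC, 1 was higher at an unadjusted p under 0.05, where 5.36% of tested genes were. It was Ccbe1, whose product directs the cleavage of VEGFC, averaging 4991 ± 898 normalized counts (SD) in the 7 mutant ovaries and 4011 ± 720 in the 8 WT ovaries (log2 fold change 0.32, limma-trend adjusted p = 0.451). The protease genes Adamts3 and Furin had log2 fold changes of -0.04 and -0.18 (limma-trend adjusted p = 0.979 and 0.784), and Adamts14 had the lowest of this list, -0.30. Of 16 hypoxia regulators and targets, the pathway that induces Vegfa, 4 had an unadjusted p under 0.05, all with lower means in HSD17B1-KI. Among all tested genes 4.64% were lower at that threshold. Egln3, a prolyl hydroxylase gene that hypoxia induces, had 151 ± 30.4 normalized counts (SD, n = 7) against 272 ± 70.9 (SD, n = 8), with 7 of 7 HSD17B1-KI mice below the WT mean (log2 fold change -0.82 ± 0.17 (SE), limma-trend adjusted p = 0.0665, DESeq2 adjusted p = 0.000517). The others were the oxygen sensor gene Egln1 (-0.17), the factor gene Hif1a (-0.21) and the lactate dehydrogenase gene Ldha (-0.22), with limma-trend adjusted p of 0.293, 0.493 and 0.281. The median of the list was -0.18, and its highest gene was Arnt at 0.10.

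Of 10 partners of the TIE and VEGF receptors, Shb, an adaptor of VEGFR2, had a log2 fold change of -0.41 (limma-trend adjusted p = 0.249) and was the lowest, with Dok2 the highest at 0.39. Tie1, the orphan relative of Tek, had 3009 ± 220 normalized counts (SD, n = 7) and 2700 ± 357 (SD, n = 8) (log2 fold change 0.16, limma-trend adjusted p = 0.514). Of 14 genes of sprouting, Notch and ephrin signalling, Efnb2, the arterial ephrin gene, had -0.37 (limma-trend adjusted p = 0.350) and was the lowest, and Ephb4, its venous receptor gene, was the highest at 0.17. The 6 other VEGF ligands, co-receptors and endocrine gland VEGF genes ran from Prokr1 at -0.25 to Prok1 at 0.32, and the lymphatic ligand gene Vegfd, the closest relative of Vegfc, had 600 ± 63.2 (SD, n = 7) against 558 ± 54.5 normalized counts (SD, n = 8) (limma-trend adjusted p = 0.734). The 7 inhibitors of angiogenesis ran from Adamts1 at -0.49 to Vash1 at 0.13. Of them 0 had an unadjusted limma-trend p under 0.05, where 5.36% of tested genes were higher and 4.64% lower.

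**Figure D5:**
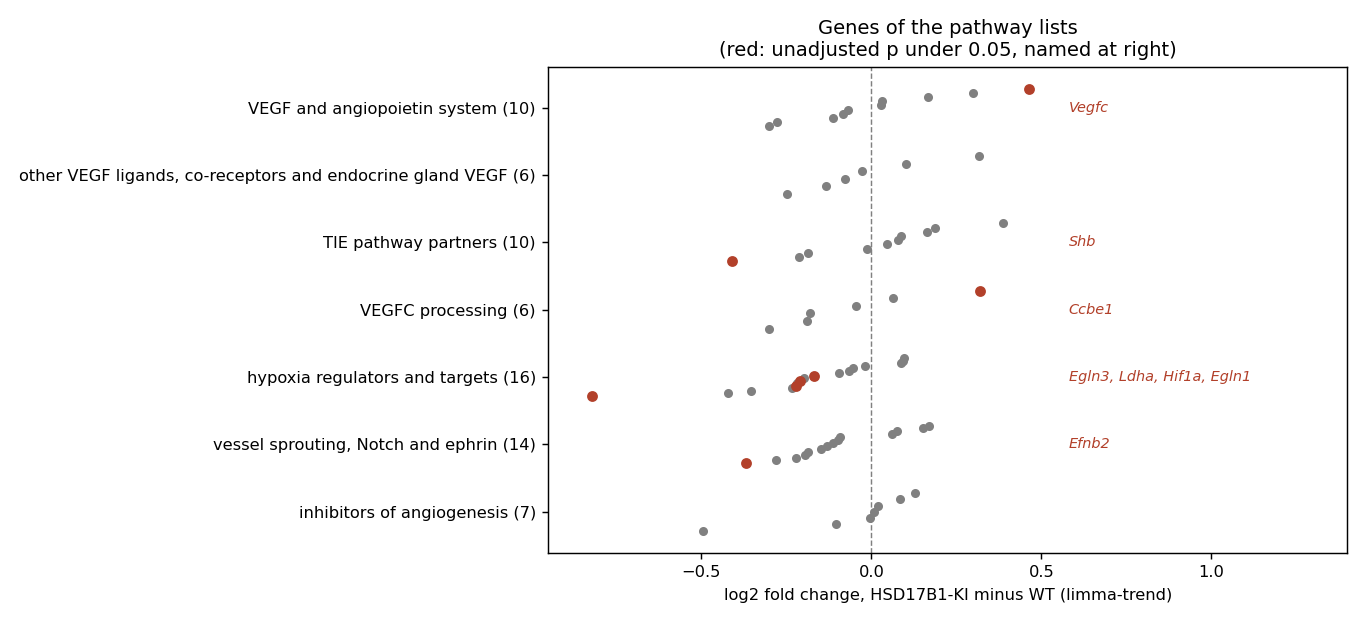
Log2 fold change of HSD17B1-KI against WT from limma-trend (horizontal axis) for each gene of the system and of 6 pathway lists (list size in brackets), with genes at an unadjusted p under 0.05 in red and named in the order of their points. Red points are Vegfc and Ccbe1 to the right of 0 and Shb, Egln3, Ldha, Hif1a, Egln1 and Efnb2 to the left.

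Markers of other cells differed between the libraries. The theca and interstitial markers had a summed level of 6473 to 67701 normalized counts in HSD17B1-KI and 5816 to 31662 in WT. Of these 6 markers 1 was DE with limma-trend (Hsd3b6), where 0.214% of tested genes were. Mural markers summed to 15075 to 27715 and 16771 to 28828, with 1 of 10 lower at an unadjusted p under 0.05 (Mcam), where 4.64% of tested genes were. Granulosa markers summed to 75165 to 224604 and 92367 to 201662, luteal markers to 657214 to 1057901 and 421074 to 1021046, and macrophage markers to 12251 to 23910 and 12238 to 20135. Oviduct markers spanned 667 to 25859 and 698 to 230574, and adipose markers 5455 to 12683 and 6721 to 13649. Of 6 adipose markers, 5 had an unadjusted limma-trend p under 0.05, 4 of them lower in HSD17B1-KI. Among all tested genes 5.36% were higher and 4.64% lower at that threshold. The median log2 fold change of the adipose list was -1.57. Oocyte markers summed to 8875 to 14661 and 10084 to 16641, and erythroid markers to 1452 to 2516 and 1148 to 4410. None of the defining markers was at 0 in all mice. Their part in the Vegfc difference was not tested. With the oviduct or the endothelial marker level of each mouse as a covariate the log2 fold change of Vegfc was 0.48 and 0.46 (limma-trend adjusted p = 0.0968 and 0.0817). Deviations of Vegfc had r = 0.155 and -0.0098 with these 2 levels, so the covariates could change little and do not decide the question. The theca and interstitial level (r = 0.502 with Vegfc, permutation p = 0.0399, adjusted 0.193) was not used as a covariate. Nor were the erythroid, lymphatic and adipose levels, which had r = 0.511, 0.479 and 0.454 with Vegfc and did not pass the adjustment either.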

How the data were processed

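Ovarian mRNA of 7 HSD17B1-KI and 8 WT mice was sequenced from stranded libraries, 1 per mouse. The authors demultiplexed with bcl2fastq 2.20, trimmed with Skewer and aligned to mm10 with STAR 2.7.3 (submitters' processing notes and methods). The counting program and annotation are not given in the sources used here. The deposited signal values are gene read counts divided by 1 size factor per library, a normalization by the authors, whose own comparison used DESeq2. Values were whole multiples of 1 step per library for 100% of values (tolerance 0.01), so that whole reads were recovered. They were used for edgeR (quasi-likelihood, TMM) and DESeq2, which gave 50 and 456 DE genes. Depth limits genes with few reads, such as Pgf, most.

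Limma-trend was fitted to log2(normalized count + 1) of the 21525 genes that averaged 2 or more, with genotype as the only term. The added 1 makes fold changes of low genes smaller. The 10 members, the 8 relative measures (exact permutation tests), the 6 pathway lists and the 11 marker lists (endothelium, lymphatic endothelium, mural, granulosa, luteal, theca and interstitial cells, macrophages, oocytes, oviduct, adipose tissue, erythroid cells) were chosen with earlier results of these data known. The text names all members, pathway genes at an unadjusted p under 0.05, the lowest and highest gene of each list, and for members averaging 100 or more the 3 genes most like them. Adamts3, Furin, Tie1, Vegfd, Hsd3b6 and Mcam were chosen after their values were seen, as were the 155 relations and their repeat without HSD17B1-KI 4 and 5.

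Alternatives were other pseudocounts (0.1, 10) and filters (none, or an average of 10), upper quartile and quantile scaling, array weights, edgeR, DESeq2, a replicate block, oviduct or endothelial covariates, a threshold of 0.1 and the omission of single mice. Tested on simulated data with 200 of 21525 genes changed 3-fold, limma-trend recovered 175 with 6 false calls, edgeR 176 (4 false) and DESeq2 183 (59 false). GENCODE M21 gave positions and RefSeq GRCm38.p6 promoters. Software was Python 3.11.15 with NumPy 2.4.6, SciPy 1.17.1, pandas 2.3.3 and matplotlib 3.10.9, and R 4.3.3 with DESeq2 1.42.0, edgeR 4.0.16 and limma 3.58.1.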

Additional observations from a re-analysis of the deposited data

Results flagged for a closer look

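Of 36 groups of values examined for a mouse far from the others, 4 held one by Dixon's criterion, which chance meets in about 1 group in 20. Angpt1 in HSD17B1-KI 7 was at 1099 normalized counts, where the next highest HSD17B1-KI mouse was at 722. The log2 ratio of Vegfc over Flt4 in HSD17B1-KI 6 was -0.79, with the next at -1.40. Flt4 relative to the lymphatic markers was 0.15 on the log2 scale in the same mouse, HSD17B1-KI 6, with the next lowest at 0.53. Tek relative to the endothelial markers was -0.65 in WT 1, with the next lowest WT mouse at -0.26.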

How the results depend on the processing

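Vegfc kept its direction and stayed above an adjusted p of 0.05 in the limma-trend and edgeR alternatives and in the 15 limma-trend fits without 1 mouse (log2 fold change 0.41 to 0.52, adjusted p 0.0578 to 0.210), and in the 15 DESeq2 fits without 1 mouse it was DE each time (adjusted p 0.000421 to 0.0356). The number of DE members was 0, but 1 with DESeq2 and 1 at an adjusted p under 0.1, in each case Vegfc, and 0 to 0 without 1 mouse (1 to 1 with DESeq2). Vegfc over Flt4 kept a difference of 0.32 to 0.47 without 1 mouse. The number of DE genes, 46, was 28 with no filter, 28 with quantile normalization, 125 with array weights, 94 with the endothelial covariate, 456 with DESeq2 and 146 at an adjusted p under 0.1. It was 6 to 139 when 1 mouse was left out, and 270 to 674 with DESeq2 (303 without WT 1). Small differences changed sign. Vegfb was -0.047 with array weights and -0.033 to 0.063 without 1 mouse, Pgf was 0.035 with quantile normalization, 0.059 with the oviduct covariate and -0.29 to 0.050 without 1 mouse, Flt4 was -0.014 to 0.097 and Kdr over Flt1 -0.042 to 0.0074 without 1 mouse. Without 1 mouse the log2 fold changes of Kdr ran from -0.12 to -0.034 and of Flt1 from -0.12 to -0.0029, both nearest 0 without HSD17B1-KI 6. The cause was not tested.

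The labels do not say whether the replicate numbers pair the mice. No pairing was visible, as same-numbered mice correlated between -0.548 and 0.550 and 1 of 7 HSD17B1-KI mice correlated best with its own number. These correlations cannot exclude a pairing. With the replicate number as a block 0 genes were DE, with 1730 at an unadjusted p under 0.05. Under this block 0 members were DE (2 at an unadjusted p under 0.05), the adjusted p of Vegfc was 0.478 and the log2 fold change of Pgf was 0.050.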
